A study of Mus musculus with 6 samples.

Results

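The genes described here handle iron: *Tfrc*, which encodes transferrin receptor 1, and 9 genes that take up, reduce, store, release and sense iron. They were chosen by name, as *Tfrc*, *Steap3*, *Slc11a2*, *Slc39a14*, *Fth1*, *Ftl1*, *Slc40a1*, *Hmox1*, *Aco1* and *Ireb2*, and are 10 of 24421 genes in the table. All 10 had enough reads to be tested, among 13479 genes tested in all. RNA came from untreated primary cells of the mouse stria vascularis, the blood vessel-rich tissue of the cochlea that secretes the fluid bathing the hair cells, taken on postnatal days 10 to 12. The labels call the cells primary endothelial cells and name 2 genotypes, 3 Nhe6 KO cultures (here *Nhe6*-knockout) and 3 Wild type cultures (wildtype), with C57BL/6N as the strain background of both, whereas the study's methods describe a targeted disruption backcrossed to a C57BL/6J background. Per those methods the cells were purified by fluorescence-activated sorting, grown in endothelial medium with 10% fetal bovine serum, and pooled from several mice per culture, with 1 library per culture. Serum brings transferrin and iron into the medium of both genotypes.

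Iron bound to transferrin enters the cell with transferrin receptor 1, is freed from transferrin in the acid endosome, is reduced there by STEAP3 and leaves through the transporter DMT1. Iron that is not used is stored in ferritin or exported by ferroportin, and haem oxygenase 1 adds iron by breaking down haem. When iron is scarce, the iron regulatory proteins IRP1 (*Aco1*) and IRP2 (*Ireb2*) bind hairpins called iron-responsive elements, which protects *Tfrc* mRNA from decay and blocks translation of the ferritin mRNAs. Read counts follow the first of these effects and do not measure the second.

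The hairpins were searched for by their letters in the untranslated regions (UTRs) of GENCODE M21 transcripts on GRCm38, on the transcript strand alone. Only protein-coding transcripts of the GENCODE basic set were searched, and UTRs shorter than 27 bases were left out. A match had an unpaired C, an upper stem of 5 base pairs, a loop read as CAGTGN and at least 4 of 5 pairs in the lower stem. Such a match was found in the 5′ UTR of 6 of 20143 genes (0.0298%) and in the 3′ UTR of 10 of 20841 genes (0.048%). Among the 10 iron genes, *Tfrc* held 4 matches in its 3′ UTR, and *Fth1*, *Ftl1* and *Slc40a1* held 1 each in the 5′ UTR. They are shown as DNA, 5′ to 3′ on the transcript strand, and the capitals mark the 6 bases of the loop. Hairpins in the 3′ UTR of *Tfrc* act on the decay of its mRNA, and those in a 5′ UTR act on translation. They say nothing of other control of these mRNA levels.
*Tfrc* 3′ UTR, chr16:32631220-32631246, + strand: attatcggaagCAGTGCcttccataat
*Tfrc* 3′ UTR, chr16:32631599-32631625, + strand: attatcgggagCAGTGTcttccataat
*Tfrc* 3′ UTR, chr16:32631664-32631690, + strand: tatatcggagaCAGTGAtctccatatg
*Tfrc* 3′ UTR, chr16:32631711-32631737, + strand: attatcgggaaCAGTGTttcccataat
*Fth1* 5′ UTR, chr19:9982733-9982759, + strand: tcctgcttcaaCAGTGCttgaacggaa
*Ftl1* 5′ UTR, chr7:45459780-45459806, - strand: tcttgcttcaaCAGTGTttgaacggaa
*Slc40a1* 5′ UTR, chr1:45925466-45925492, - strand: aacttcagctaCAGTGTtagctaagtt
The other 6 iron genes held no such match, which says only that these letters were not in those of their UTRs that were searched. A match is a run of letters and not a measured binding site. *Slc11a2* is known to have transcripts with and without a 3′ hairpin, and counts per gene do not separate them.

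The libraries held 25587097 to 29126232 reads on genes. Wildtype replicate 2 stood apart from the rest, at 106 on principal component 1 where the others lay between -28.5 and -6.52, so values without it stand beside the results that rest on it. *Nhe6*-knockout replicates 1 and 2 were closer to each other than any other pair of libraries, with a mean chi-square per gene of 5.11 against 96.5 to 427.7 for the 14 other pairs and 1 from counting alone. They differed by more than counting error and were kept as 2 cultures, and a fit with their reads summed was added after the data were seen. Of 15 endothelial markers, 10 were tested. *Cldn5* had 0 reads in every library, *Tie1* at most 2, *Pecam1* at most 8, *Erg* at most 15, *Plvap* at most 16 and *Vwf* at most 25. *Kdr* reached 68 reads, *Esam* 230 and *Egfl7* 326. The abundant ones were *Emcn*, which reached 18730 reads, *Eng* 5467, *Cdh5* 5039, *Cd34* 4716, *Flt1* 3077 and *Tek* 975. All but *Cldn5*, *Tie1*, *Pecam1* and *Vwf* were named after their values were seen. *Cdh5*, the VE-cadherin of endothelial junctions, was the only endothelial marker called in edgeR's test, at 210.4 (SD 27.9) normalized counts in *Nhe6*-knockout and 3726 (SD 1363) in wildtype cultures, and fell by 4.15 on the log2 scale (adjusted p = 0.0133). It stayed lower with any 1 culture left out (log2 fold change -4.37 to -3.83) but missed the threshold in 4 of those 6 fits, without *Nhe6*-knockout replicate 1, 2 or 3 or wildtype replicate 3 (adjusted p 0.179, 0.179, 0.0642 and 0.103), and with *Nhe6*-knockout replicates 1 and 2 summed (adjusted p 0.181). The markers of the labelled cell type thus ran from 0 to abundant, all 10 fibroblast markers were tested as well, and "cultures" is used below for the cells that were sequenced. In such bulk RNA, fewer cells of a type and less RNA per cell cannot be told apart.

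A normalized count is a gene's reads scaled for library size by the TMM method to the mean library, and values of the cultures are given in the order of replicates 1 to 3. Values in parentheses after a mean are SDs over 3 cultures, and fold changes are *Nhe6*-knockout relative to wildtype. None of the 10 iron genes passed an adjusted p of 0.05 in edgeR's quasi-likelihood test, against 9 of all genes tested (0.0668%). One of them, *Slc40a1*, had an unadjusted p under 0.05, a share close to the 11.8% of all genes. In 3 of them, *Slc40a1*, *Hmox1* and *Aco1*, every *Nhe6*-knockout culture lay above every wildtype culture, which 10.3% of all genes did. In 0 of them every *Nhe6*-knockout culture lay below, as 9.57% of all genes did. The median log2 fold change of the 10 genes was 0.07, with 6 above 0 and 4 below, and that of all genes tested was -0.02, with 48.1% above 0. DESeq2 called 0 of the 10 where it called 4.65% of all genes, and edgeR without wildtype replicate 2 called 0 where it called 2.88%. With 3 cultures a group the intervals are wide, so a gene that missed the threshold is described by its interval and not as unchanged.

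**Figure D1:**
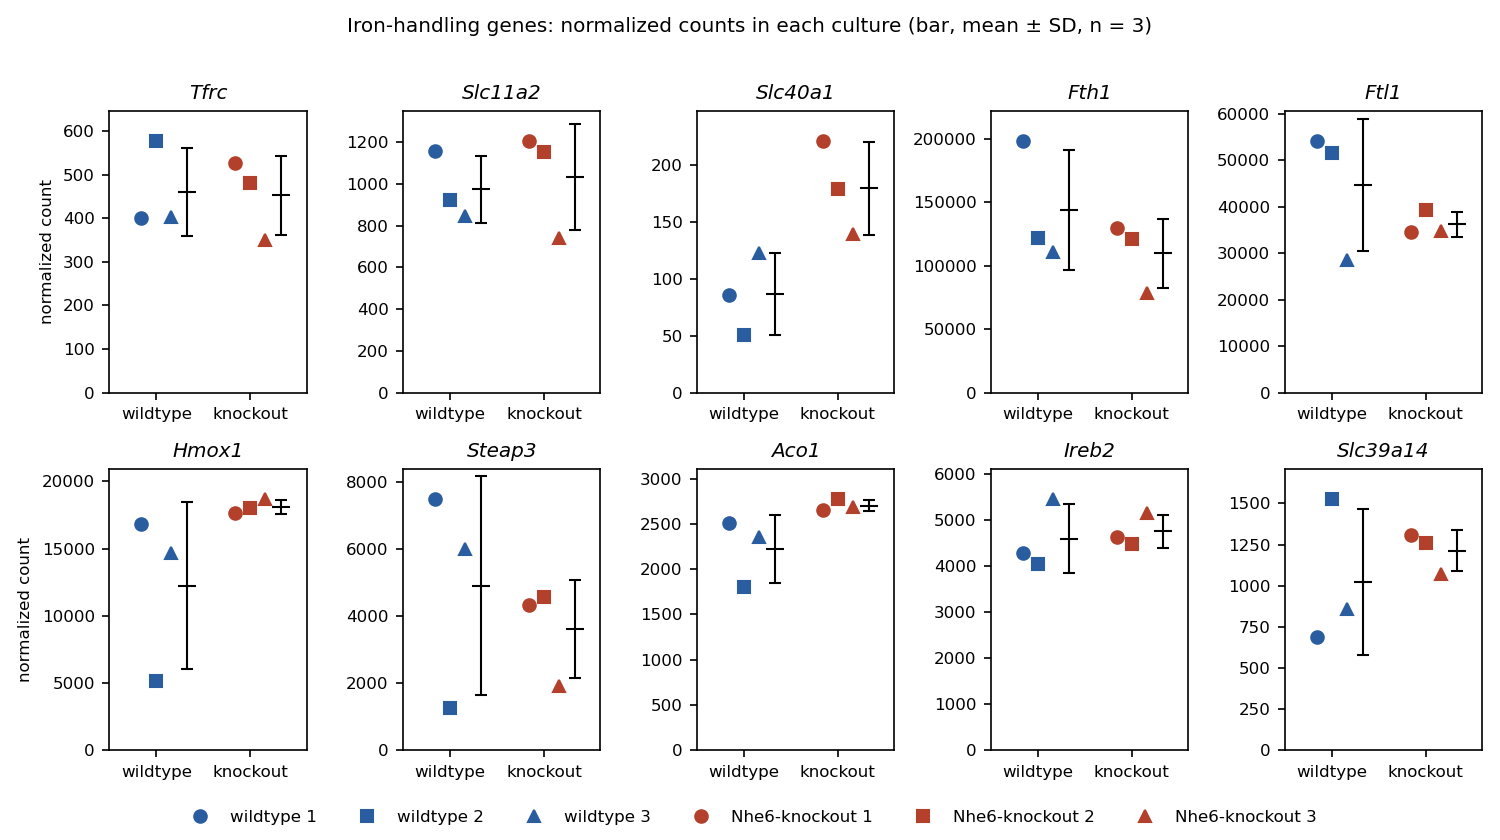
Normalized counts (y axis, linear from 0, own scale per gene) of the 10 iron genes in each of 6 cultures, with the genotype on the x axis, a symbol per replicate and bars for mean ± SD (n = 3). *Tfrc* points of both genotypes lie between 351 and 577, the *Slc40a1* points of *Nhe6*-knockout cultures all lie above those of wildtype cultures, and wildtype replicate 2 (blue square) is the lowest point of *Hmox1*, *Steap3*, *Aco1*, *Ireb2* and *Slc40a1*.

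*Tfrc* (chr16:32608920-32632794, + strand), the receptor that carries iron-loaded transferrin into the cell, had 527, 481 and 351 normalized counts in the 3 *Nhe6*-knockout cultures. The wildtype cultures had 400.0, 577 and 403. The genotypes overlapped, with the lowest value in *Nhe6*-knockout replicate 3 and the highest in wildtype replicate 2. The means were 453 (91.0) and 460.1 (101), and the log2 fold change was -0.02 (SE 0.23, 95% interval -0.59 to 0.54, adjusted p = 0.977). On the fold scale that interval runs from 0.665 to 1.46, so larger changes of *Tfrc* mRNA lay outside it. Without wildtype replicate 2 the log2 fold change was 0.17 (adjusted p = 0.719), on the other side of 0.

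*Steap3* (chr1:120190757-120272705, - strand), the reductase that turns ferric into ferrous iron in the endosome, varied most among the cultures. It had 4337, 4565 and 1927 normalized counts in *Nhe6*-knockout cultures against 7492, 1251 and 6006 in wildtype cultures. Wildtype replicate 2 was the lowest of all cultures, and the wildtype values spanned 5.99-fold, so the genotypes overlapped. Over all cultures the log2 fold change was -0.45 (SE 0.65, 95% interval -2.02 to 1.13, adjusted p = 0.847). Without wildtype replicate 2 it was -0.91, with an unadjusted p of 0.0466 and an adjusted p of 0.249 in edgeR's test, and the *Nhe6*-knockout cultures were then all below the wildtype ones.

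*Slc11a2* (chr15:100387898-100425072, - strand) encodes DMT1, which moves ferrous iron out of the endosome. It had 1204, 1155 and 742 normalized counts in *Nhe6*-knockout and 1156, 923 and 846 in wildtype cultures. *Nhe6*-knockout cultures gave both the highest and the lowest value, and the log2 fold change was 0.08 (SE 0.23, 95% interval -0.46 to 0.63, adjusted p = 0.923). *Slc39a14* (chr14:70303469-70351425, - strand) encodes ZIP14, which imports iron that is not bound to transferrin. There were 1306, 1261 and 1073 normalized counts in *Nhe6*-knockout cultures and 688, 1525 and 858 in wildtype cultures. Wildtype replicate 2 was the highest of the 6 and the other wildtype cultures were the lowest. The genotypes differed by 0.25 on the log2 scale (SE 0.30, 95% interval -0.48 to 0.97, adjusted p = 0.810), and without wildtype replicate 2 it was 0.65, with an unadjusted p of 0.00731 and an adjusted p of 0.103 in edgeR's test. That adjusted p was the lowest of any of the 10 genes under any of 14 alternatives.

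Ferritin transcripts were the most abundant of the 10. *Fth1* (chr19:9980598-9985098, + strand), the ferritin heavy chain that oxidizes iron for storage, took 0.292% to 0.711% of all reads on genes. It had 129475, 121341 and 78540 normalized counts in *Nhe6*-knockout cultures against 198247, 122181 and 111063 in wildtype cultures. Wildtype replicate 1 was the highest and *Nhe6*-knockout replicate 3 the lowest, with overlap between the genotypes, and the log2 fold change was -0.39 (SE 0.35, 95% interval -1.22 to 0.44, adjusted p = 0.728).

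*Ftl1* (chr7:45457944-45459884, - strand), the light chain, helps form the iron core. It had 34587, 39323 and 34691 normalized counts in *Nhe6*-knockout cultures and 54042, 51547 and 28429 in wildtype cultures. A pair of wildtype cultures lay above all *Nhe6*-knockout cultures and the third lay below them, and the log2 fold change was -0.30 (SE 0.28, 95% interval -0.98 to 0.38, adjusted p = 0.741). *Ftl1* is uncertain, because 758 of 894 windows of 75 bases along its transcript (84.8%) also occurred in 8 other annotated genes or pseudogenes, and the table counts only reads placed at 1 site. The share was 2.32% for *Fth1*, with 1 other gene, and 0 for the other 8 iron genes. *Ftmt*, the mitochondrial ferritin, had 0 reads in every library.

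*Slc40a1* (chr1:45908068-45926523, - strand) encodes ferroportin, the exporter of iron from cells, and was the lowest of the 10 per length. The *Nhe6*-knockout cultures had 221, 179 and 139 normalized counts of *Slc40a1*. The wildtype cultures had 86.1, 50.6 and 123. Every *Nhe6*-knockout culture lay above every wildtype culture, with the closest pair at 139 and 123. The means were 179.8 (40.9) and 86.6 (36.2), a log2 fold change of 1.05 (SE 0.39, 95% interval 0.13 to 1.98), or 2.08-fold with an interval of 1.09 to 3.95. The unadjusted p in edgeR's test was 0.0318 and the adjusted p was 0.363, so the difference did not pass the threshold over all genes. Without wildtype replicate 2 the log2 fold change was 0.78 (unadjusted p 0.0421, adjusted p 0.236). With *Nhe6*-knockout replicates 1 and 2 summed it was 0.96 (unadjusted p 0.0881). DESeq2 gave an adjusted p of 0.168.

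*Hmox1* (chr8:75093621-75100589, + strand), the inducible haem oxygenase, releases iron from haem. It had 17662, 18018 and 18666 normalized counts in *Nhe6*-knockout cultures and 16818, 5158 and 14704 in wildtype cultures. The *Nhe6*-knockout cultures lay close together and above all wildtype cultures, and wildtype replicate 2 lay far below the rest. The coefficient of variation was 2.81% for the *Nhe6*-knockout and 50.8% for the wildtype cultures. Between the genotypes the log2 fold change was 0.57 (SE 0.42, 95% interval -0.44 to 1.57, adjusted p = 0.662). Without wildtype replicate 2 it was 0.20 (adjusted p = 0.482).

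The 2 regulators had the smallest SEs of the 10 genes. *Aco1* (chr4:40143081-40198338, + strand) encodes IRP1, which is a cytosolic aconitase when it carries an iron-sulfur cluster and binds RNA when it does not. It had 2654, 2772 and 2681 normalized counts in *Nhe6*-knockout and 2513, 1798 and 2352 in wildtype cultures. All *Nhe6*-knockout cultures lay above all wildtype cultures, and wildtype replicate 2 was the lowest. This gave a log2 fold change of 0.28 (SE 0.15, 95% interval -0.08 to 0.64, adjusted p = 0.523), and 0.15 without wildtype replicate 2. *Ireb2* (chr9:54863789-54912530, + strand) encodes IRP2, which is removed by protein degradation when iron is plentiful. It had 4622, 4481 and 5151 normalized counts in *Nhe6*-knockout and 4290.3, 4038 and 5445 in wildtype cultures. The genotypes overlapped, with a log2 fold change of 0.05 (SE 0.15, 95% interval -0.32 to 0.42, adjusted p = 0.935). These were the narrowest intervals of the 10, and that of *Ireb2* spans folds of 0.800 to 1.34.

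**Figure D2:**
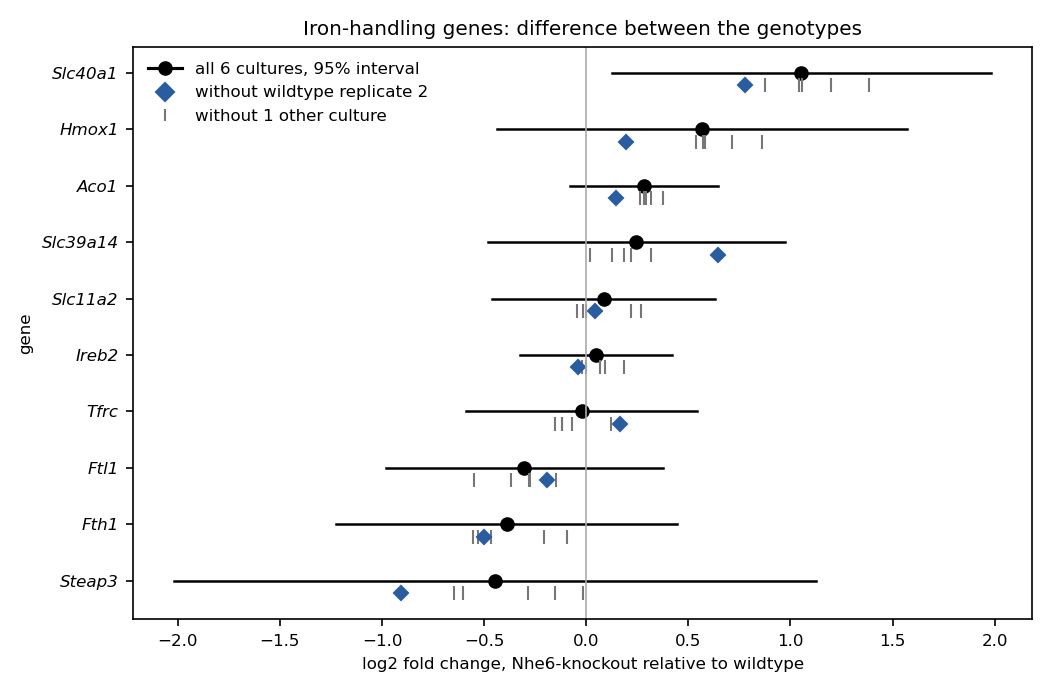
Log2 fold change of each iron gene (x axis, *Nhe6*-knockout relative to wildtype), genes ordered by it on the y axis, with black points and lines for the fit of all 6 cultures and its 95% interval, blue diamonds for the fit without wildtype replicate 2 and grey ticks for fits without 1 other culture. The interval of *Slc40a1* (0.13 to 1.98) does not reach 0, those of the other 9 genes do, and the diamonds of *Hmox1*, *Steap3* and *Slc39a14* lie farthest from their points.

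Per length of exon, the 10 genes differed widely in level. In RPKM, the reads on a gene scaled by library size and by the length of its merged exons, *Fth1* ranged from 821 to 2073 over the 6 cultures and *Ftl1* from 770 to 1463, and these ranges overlapped. *Hmox1* followed at 107 to 387, apart from its neighbours. *Steap3* ranged from 7.94 to 47.6, *Aco1* from 14.5 to 22.4 and *Ireb2* from 15.5 to 20.8, and the 3 could not be told apart. *Slc11a2* ranged from 4.24 to 6.88, *Slc39a14* from 2.36 to 5.25 and *Tfrc* from 2.06 to 3.38, each overlapping the next. *Slc40a1* was lowest and apart, at 0.204 to 0.891. Merged exons include rarely used ones, so these levels are low estimates for genes with many transcripts. The level of *Ftl1* also rests on its uncertain count.

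**Figure D3:**
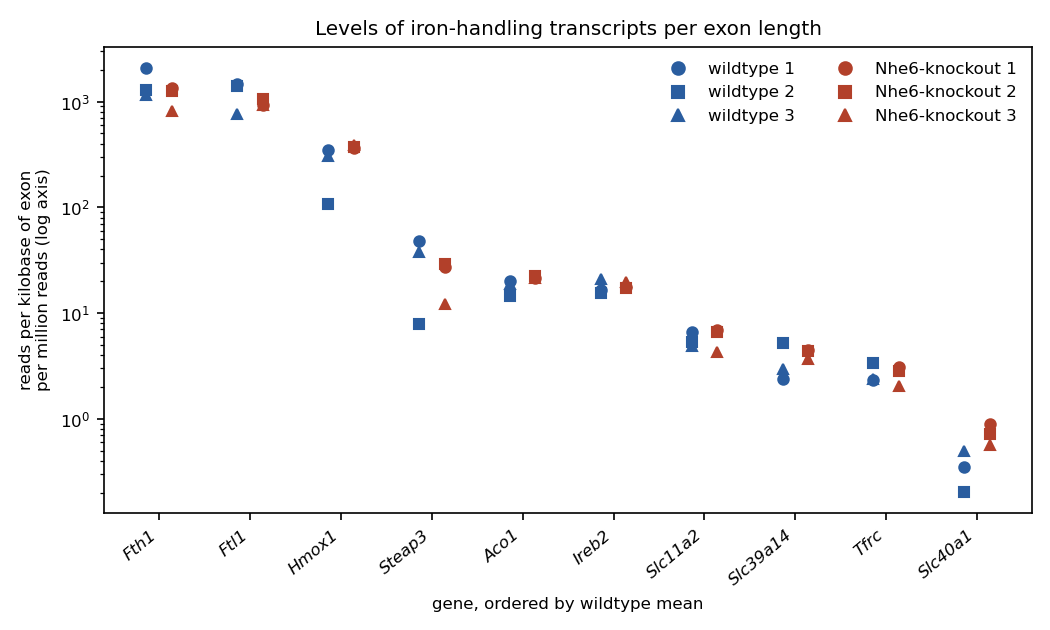
Level of each iron gene per exon length (y axis, RPKM, log axis) in each culture, genes ordered along the x axis by their wildtype mean, blue for wildtype and red for *Nhe6*-knockout with a symbol per replicate. Levels run from 2073 for *Fth1* to 0.204 for *Slc40a1*, and the genotypes lie within the same range for most genes.

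Ratios within a library do not depend on the scaling between libraries. *Tfrc* had 4.07, 3.96 and 4.47 reads per 1000 *Fth1* reads in *Nhe6*-knockout cultures and 2.02, 4.72 and 3.63 in wildtype cultures. In this ratio the genotypes overlapped through wildtype replicate 2 alone, at 4.72, and the other wildtype cultures lay below every *Nhe6*-knockout culture. In those 2 wildtype cultures *Tfrc* itself, at 400.0 and 403 normalized counts, lay within the *Nhe6*-knockout range of 351 to 527. *Fth1*, the denominator, was highest in wildtype replicate 1, at 198247 normalized counts. The cause was not tested. *Fth1* reads per *Ftl1* read were 3.74, 3.09 and 2.26 against 3.67, 2.37 and 3.91, which overlapped and rest on the uncertain *Ftl1* count. *Slc40a1* reads per *Tfrc* read were 0.419, 0.373 and 0.396 in *Nhe6*-knockout cultures and 0.215, 0.0877 and 0.305 in wildtype cultures. All 3 *Nhe6*-knockout ratios lay above the wildtype ones, and the smallest two-sided exact permutation p that 3 cultures against 3 allow is 0.1.

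Another 78 genes of iron and haem handling were listed, of which 69 were tested. None passed the adjusted threshold in edgeR's test, 33 had a log2 fold change above 0 and 36 below, and the median was -0.03 against -0.02 for all genes. An unadjusted p under 0.05 was found for 10 of them, or 14.5% against 11.8% of all genes, 3 higher and 7 lower in *Nhe6*-knockout cultures. Every *Nhe6*-knockout culture lay above every wildtype culture for 6 of the 69 and below for 8 of the 69, against 10.3% and 9.57% of all genes.

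In the transferrin and uptake list, 16 of 17 genes were tested, 1 was higher and 2 were lower at an unadjusted p under 0.05. That is 18.75% against 11.8% of all genes. *Trf*, transferrin itself, had 3473, 3612 and 3385 normalized counts in *Nhe6*-knockout and 2307, 354 and 1454 in wildtype cultures. All *Nhe6*-knockout cultures lay above the wildtype ones and close together, and wildtype replicate 2 was far below. *Trf* had a log2 fold change of 1.35 (SE 0.60, adjusted p = 0.446), and 0.89 without wildtype replicate 2 (adjusted p = 0.0844). *Scara5*, a receptor for ferritin, had 3426, 3483 and 2434 normalized counts against 12657, 2756 and 9178. Wildtype replicate 2 lay among the *Nhe6*-knockout cultures while the other wildtype cultures lay above them. The log2 fold change of *Scara5* was -1.40 (SE 0.52, adjusted p = 0.371), and without wildtype replicate 2 it was -1.81 and passed the threshold (adjusted p = 0.0239). *Lrp1*, an endocytic receptor that also clears haem bound to hemopexin, had a log2 fold change of 0.71 (SE 0.26, adjusted p = 0.363), with means of 93073 (16308) and 56783 (11145). *Exoc6*, an exocyst subunit needed for transferrin recycling in red cell precursors, was at 58.7 (11.9) against 102.6 (13.4), a log2 fold change of -0.81 (SE 0.29, adjusted p = 0.360). *Picalm* and *Snx3*, which act in endocytosis and receptor recycling, had log2 fold changes of 0.00 (SE 0.17) and 0.02 (SE 0.12), and *Steap2*, another metalloreductase, had -0.30 (SE 0.20).

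In the export and hepcidin list, 7 of 12 genes were tested, and *Hephl1* had 0 reads in every library. *Heph*, the ferroxidase hephaestin that works beside ferroportin, had 339, 309 and 499 normalized counts in *Nhe6*-knockout and 114, 2.06 and 126 in wildtype cultures. The genotypes did not overlap, and wildtype replicate 2 was near 0. *Heph* had a log2 fold change of 2.24 (SE 1.03, adjusted p = 0.462), and without wildtype replicate 2 it was 1.66 and passed (adjusted p = 0.0414). *Cp*, ceruloplasmin, the other ferroxidase, was abundant in all cultures, with a log2 fold change of -0.37 (SE 0.49, adjusted p = 0.827). It had 73562, 69361 and 60267 normalized counts in *Nhe6*-knockout and 108204, 31597 and 122991 in wildtype cultures. Without wildtype replicate 2 its log2 fold change was -0.78, with an unadjusted p of 0.0033 and an adjusted p of 0.0705 in edgeR's test. *Fam132b*, which encodes erythroferrone, had a log2 fold change of 1.93 (SE 0.56, adjusted p = 0.258) from at most 22 reads in any library. *Neo1* and *Hfe*, which act in the control of hepcidin, had 0.09 (SE 0.34) and -0.25 (SE 0.64).

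In the storage and chaperone list, 5 of 6 genes were tested. *Epas1* is a hypoxia-inducible factor whose mRNA is known to carry a 5′ iron-responsive element, though its searched UTRs held no match of the kind above. *Epas1* had 5481, 5465 and 2914 normalized counts in *Nhe6*-knockout and 2533, 1960 and 2135 in wildtype cultures. Every *Nhe6*-knockout culture lay above every wildtype culture, with replicates 1 and 2 well above replicate 3. The log2 fold change of *Epas1* was 1.06 (SE 0.27, unadjusted p 0.00636, adjusted p 0.192), and DESeq2 called it with an adjusted p of 0.0138. *Ncoa4*, the receptor that takes ferritin to lysosomes, had -0.23 (SE 0.14), and *Fbxl5*, which targets IRP2 for degradation, had -0.15 (SE 0.17). The iron chaperones *Pcbp1* and *Pcbp2* had 0.05 (SE 0.15) and 0.06 (SE 0.13).

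In the haem list, 19 of 20 genes were tested, 9 with a log2 fold change above 0 and 10 below. At an unadjusted p under 0.05, 3 were lower and 0 higher, or 15.8% against 11.8% of all genes. *Slc48a1*, which encodes the endosomal haem transporter HRG1, had 2578, 2467 and 2437 normalized counts in *Nhe6*-knockout and 4285, 4240.3 and 3549 in wildtype cultures. The genotypes did not overlap and wildtype replicate 2 lay with the other wildtype cultures. The log2 fold change of *Slc48a1* was -0.69 (SE 0.12, unadjusted p 9.89e-04, adjusted p 0.1003), the lowest adjusted p among the 69 genes, and DESeq2 called it with an adjusted p of 1.34e-04. Without wildtype replicate 2 it was -0.66 (adjusted p = 0.0544). *Bach1*, the haem-sensing repressor of *Hmox1* and of the ferritin genes, was at 1831 (78.3) against 2504 (348), a log2 fold change of -0.45 (SE 0.13, adjusted p = 0.268). *Uros*, an enzyme of haem synthesis, had -0.32 (SE 0.13, adjusted p = 0.421), and *Hmox2*, the constitutive haem oxygenase, had -0.18 (SE 0.25). Without wildtype replicate 2 that of *Hmox2* was -0.43, with an unadjusted p of 0.00844 and an adjusted p of 0.110 in edgeR's test.

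In the list of mitochondrial iron and iron-sulfur clusters, 22 of 23 genes were tested, 0 were higher and 2 lower at an unadjusted p under 0.05. That is 9.09% against 11.8% of all genes. *Iscu*, the scaffold on which clusters are built, had a log2 fold change of -0.44 (SE 0.16, adjusted p = 0.368). *Lyrm4*, a partner of the enzyme that supplies the sulfur, had -0.53 (SE 0.20, adjusted p = 0.367). The other 20 did not pass even the unadjusted threshold, and the median of this list was -0.04.

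**Figure D4:**
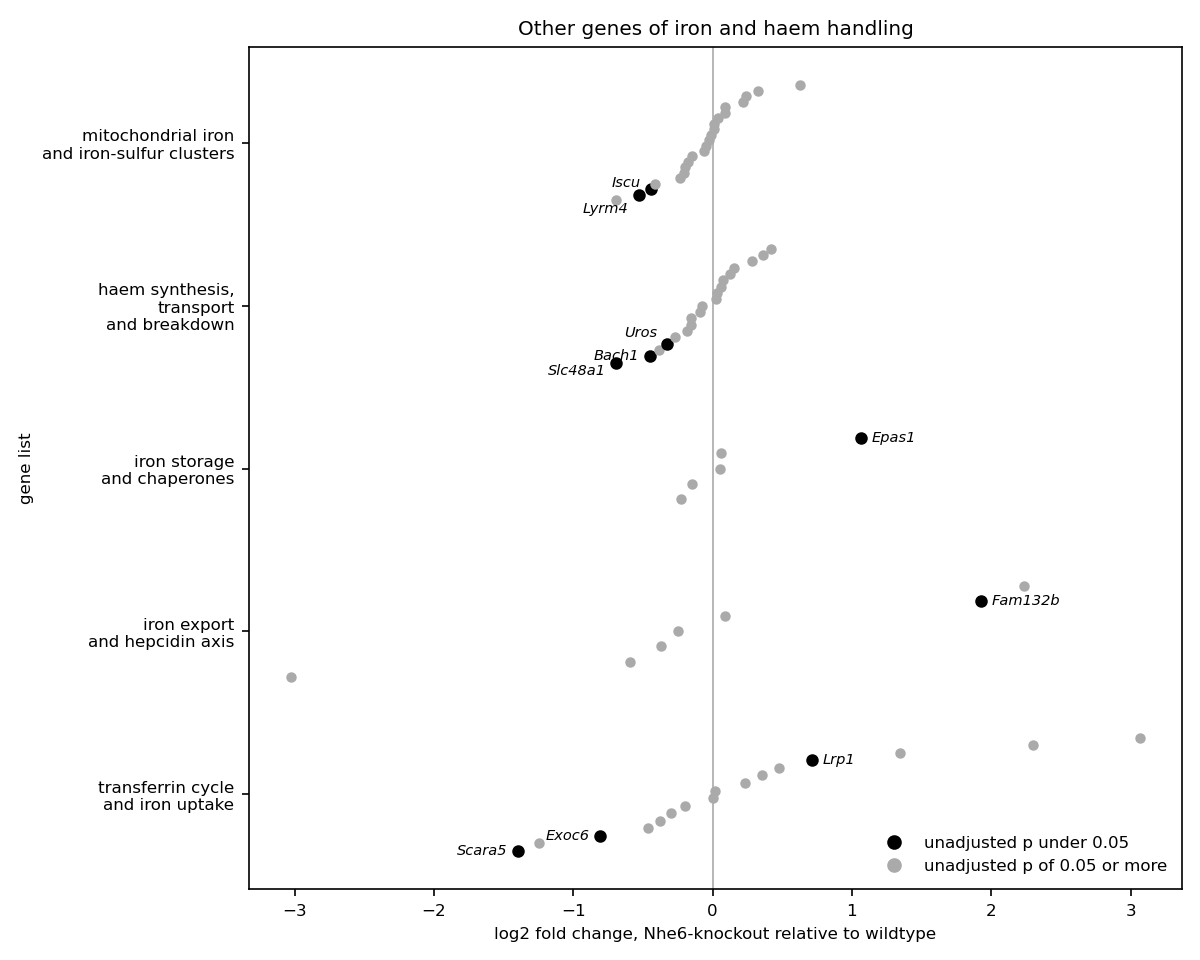
Log2 fold change (x axis, *Nhe6*-knockout relative to wildtype) of the 69 tested genes in 5 further lists of iron and haem genes (y axis, spread within a list for legibility), black and named where the unadjusted p was under 0.05 and grey otherwise. There are 3 black points above 0 and 7 below, and the lists spread around 0 with medians from -0.25 to 0.05.

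Wildtype replicate 2 was low in macrophage and epithelial markers and in several of these values. The summed normalized counts of 15 macrophage markers were 3723, 4129 and 1623 in *Nhe6*-knockout cultures against 3934, 148 and 2050.1 in wildtype cultures. Of these markers 13 were tested, 12 with a log2 fold change above 0 and 1 below, and 0 had an unadjusted p under 0.05. In wildtype replicate 2, *Adgre1*, *Ptprc*, *Aif1*, *Itgam*, *Cx3cr1*, *Tyrobp*, *C1qa*, *C1qb* and *C1qc* were at 0 reads, though *Aif1* had at most 3 in any library. The rest of the list was above 0 there, with *Cd14* at 47 reads, *Cd68* 46, *Lyz2* 29, *Csf1r* 14, *Mrc1* 4 and *Fcer1g* 3. The same culture was the lowest for *Hmox1*, *Slc40a1*, *Steap3*, *Aco1*, *Ireb2*, *Trf*, *Heph* and *Cp*, among others. It was the highest for *Tfrc*, *Slc39a14*, *Bach1*, *Iscu* and *Bmp6*, among others, and lay between for *Slc11a2*, *Fth1* and *Ftl1*. Epithelial markers were also lowest there, with sums over 8 markers of 228, 732 and 62.5 in *Nhe6*-knockout cultures and 1181, 3.10 and 525 in wildtype cultures. Of these 8, 5 were tested, all with a log2 fold change below 0 and 0 with an unadjusted p under 0.05. *Krt5* and *Krt14* were at 0 reads in every library. *Krt8*, *Krt18*, *Cldn3* and *Cldn4* were at 0 in wildtype replicate 2, *Cldn3* also in *Nhe6*-knockout replicate 3. *Epcam* had 2 reads and *Cdh1* 1 in wildtype replicate 2. *Nhe6*-knockout replicate 3 had the lowest macrophage and epithelial sums of its group. There *Hmox1*, *Ireb2* and *Heph* were the highest of the group, *Slc40a1*, *Steap3*, *Trf*, *Cp*, *Tfrc* and *Slc39a14* the lowest, and *Aco1* lay between. The part of macrophage or epithelial RNA in these values was not tested. The sum of 10 fibroblast markers ranged from 238365 to 274443 in *Nhe6*-knockout and from 182657 to 319806 in wildtype cultures, that of 10 mural cell markers from 20250 to 21542 and from 15576 to 33901, and that of 15 endothelial markers, in which *Emcn* weighs most in 5 of 6 cultures, from 16895 to 25953 and from 15991 to 23665. All 16 cell cycle genes had a log2 fold change above 0, with a median of 2.62 and sums of 8396 to 15328 against 2605 to 3940.0. For 14 of the 16 every *Nhe6*-knockout culture lay above every wildtype culture, against 10.3% of all genes. The test of edgeR called 0 of the 16 (lowest adjusted p 0.0652) and DESeq2 called 13, against 0.0668% and 4.65% of all genes. *Tfrc* is known to be higher in dividing cells. Its counts overlapped between the genotypes, with a fold interval of 0.665 to 1.46, and a link to the cell cycle genes was not tested. The haemoglobin genes *Hba-a1*, *Hba-a2*, *Hbb-bs* and *Hbb-bt* were at 0 reads in every library.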

How the data were processed

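RNA of 6 cultures (3 per genotype) was measured by poly(A) sequencing with stranded libraries. The deposited values are raw read counts per gene symbol, which the authors did not normalize. The submitters' processing notes name mm10, bcl2fastq 2.20.0.422, STAR 2.7.7a, HTSeq 0.13.5 and DESeq2 1.26.0, without roles. The annotation and strand setting used for counting are not given in the sources used here. The 5 summary lines, which held 22.2% of all reads (9.53% placed at several sites), stayed out of library sizes and tests. Columns were matched to cultures by genotype and replicate number.

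Genes were filtered with filterByExpr (minimum count 10), normalized with TMM and compared with edgeR 4.0.16 (R 4.3.3) by its two-sided quasi-likelihood test, with genotype alone in the design and Benjamini-Hochberg adjustment over 13479 genes (threshold 0.05). SEs are the log2 fold change divided by the square root of F. Scripts were tested on simulated data. The p-values measure the spread between these cultures, and *Nhe6*-knockout replicates 1 and 2 may be less independent than the rest.

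The members, gene lists and tests were chosen with earlier results of these data known. All 10 members are given with every value. The check of the targeted gene is not reported here. In the other iron lists, genes with an unadjusted p under 0.05 and up to 5 further genes of highest mean could be named. *Hephl1*, *Ftmt*, the markers at 0 and the low endothelial markers are named as absent or near 0. All endothelial markers but *Cldn5*, *Tie1*, *Pecam1* and *Vwf* were named after their values were seen. So were the macrophage and epithelial markers above 0 in wildtype replicate 2. The 3 genes whose centred log2 counts were nearest to those of *Tfrc* were named by root mean square difference. The alternatives were DESeq2 size factors, upper-quartile factors, 2 other count filters, the Wald test of DESeq2 1.42.0, limma-voom (limma 3.58.1), a replicate block, leaving out each culture in turn, and *Nhe6*-knockout replicates 1 and 2 summed. Positions and UTRs came from GENCODE M21 on GRCm38.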

Additional observations from a re-analysis of the deposited data

How the results depend on the processing

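None of the 10 iron genes was called under any of 14 alternatives (13 planned and 1 added after the data were seen), with adjusted p-values down to 0.103. Of 140 fold changes of these genes, 130 kept their direction and 10 in 3 genes changed sign, all near 0. *Tfrc* was 0.012 on the log2 scale with upper-quartile factors, and -0.15 to 0.17 with 1 culture left out. *Slc11a2* was -0.044 to 0.27 with 1 culture left out and -0.023 with *Nhe6*-knockout replicates 1 and 2 summed, and *Ireb2* was -0.040 to 0.18 with 1 culture left out. Of the 69 other iron genes, 2 were called by DESeq2 (*Slc48a1* and *Epas1*) and 0 to 2 with 1 culture left out, the 2 without wildtype replicate 2 (*Scara5* and *Heph*). The number called among all genes was 21 without a filter, 21 with at least 10 counts in every library, 627 in DESeq2, 2 with the replicate block, 1 with the 2 *Nhe6*-knockout replicates summed and 0 to 395 with 1 culture left out. The 395 were without wildtype replicate 2, and the cause was not tested. The replicate numbers did not pair the cultures, since deviations of same-numbered cultures correlated at 0.207, -0.189 and 0.111, and the block called 0 of the 10 iron genes and no longer called *Cdh5* (adjusted p 0.0748). With 3 cultures a group, the intervals of *Steap3*, *Hmox1*, *Fth1* and *Slc40a1* hold changes of over 2-fold.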

Other observations

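The genes whose pattern over the 6 libraries was nearest to that of *Tfrc*, among 11126 tested genes averaging 100 normalized counts or more, were *Elovl5*, *E430025E21Rik* and *Fkbp1a*. Their root mean square differences from *Tfrc* in centred log2 counts were 0.0809, 0.0810 and 0.0814. *Elovl5*, which lengthens polyunsaturated fatty acids, had 5928, 5837 and 4148 normalized counts in *Nhe6*-knockout and 4079, 6609 and 4419 in wildtype replicates 1 to 3. *Fkbp1a*, a small immunophilin, had 7841, 7313.5 and 6093 against 6783, 8912 and 6558. Like *Tfrc*, both were highest in wildtype replicate 2 and lowest or next to lowest in *Nhe6*-knockout replicate 3. The likeness rests on 6 libraries.

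*Aco1* reads per *Ireb2* read were 0.574, 0.619 and 0.520 in *Nhe6*-knockout and 0.586, 0.445 and 0.432 in wildtype cultures, with overlap from wildtype replicate 1 alone. The widest log2 fold changes in the other iron lists were those of *Bmp6* (-3.02, adjusted p 0.456 in edgeR's test) and *Cd163* (3.07, adjusted p 0.503), named after their values were seen. *Bmp6*, a ligand that induces hepcidin, had 8.50, 29.7 and 0 normalized counts in *Nhe6*-knockout cultures and 29.3, 238 and 47.1 in wildtype cultures, and without wildtype replicate 2 its log2 fold change was -1.57. *Cd163*, the receptor for haemoglobin bound to haptoglobin, had 125, 121 and 21.8 normalized counts in *Nhe6*-knockout cultures and 31.3, 0 and 0 in wildtype cultures. Without wildtype replicate 2 its log2 fold change was 2.48, and without wildtype replicate 1 the wildtype cultures were all at 0.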
